A study of Mus musculus with 4 samples.

Results

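The immunoglobulin variable (V) genes were the 348 features of 31053 whose symbol begins with Ighv, Igkv or Iglv. They comprised 185 heavy chain segments on chromosome 12 (113572927 to 116010093 in GRCm38), 160 kappa segments on chromosome 6 (67555497 to 70704177) and 3 lambda segments on chromosome 16 (19085017 to 19260859). The mouse annotation (GENCODE release 21) classed 70 of the heavy and 60 of the kappa segments as pseudogenes in the C57BL/6 reference. They were counted in immune cells that had been sorted from digested mammary tumours. The mice were FVB/NJ animals of 12 weeks, and the cells were read by droplet-based single-cell RNA sequencing with a kit for the 3′ end of transcripts. One genotype was PyMT (WT/PyMT in the design text), a mouse whose mammary tumours are driven by the polyoma virus middle T antigen, and the other was Jagged1/PyMT, which carries an altered Jagged1, a Notch ligand, on the same background. The labels do not say how Jagged1 was altered, or which promoters drive the transgenes and in which cells. The labels name 2 samples per genotype, and each genotype is 1 matrix in which cells cannot be traced to a sample. Each genotype was therefore 1 library, no test between genotypes was possible, and every interval covers counting error only.

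Each mature B cell builds its antigen receptor by V(D)J recombination, which joins 1 V segment to D and J segments (heavy chain) or to a J segment (light chains). Allelic exclusion usually leaves a B cell with 1 productive heavy chain and 1 light chain, so the V segments that a cell transcribes are part of what identifies its clone. In the mouse most light chains are kappa and few are lambda. The rearranged V promoter drives transcription, the V exon lies at the 5′ end of the messenger RNA and the constant exons lie at its 3′ end.

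Cells are called barcodes here. A barcode was kept if it had 500 or more UMIs (unique molecular identifiers, counts of captured molecules) from 250 or more genes, of which mitochondrial genes gave no more than 10%. This left 7444 barcodes in PyMT and 7875 in Jagged1/PyMT. A B barcode held at least 3 UMIs of Cd79a, Cd79b and Ms4a1 together, which gave 1548 (20.8%) and 1550 (19.7%) barcodes. Median depth was 3612 UMIs per B barcode in PyMT and 3358.5 in Jagged1/PyMT. Of 8 B cell markers the rarest was seen in 31.7% and 31.2% of B barcodes and the most frequent in 99.9% of both. The 8 include the genes of this rule, so high values among them follow in part from the choice of barcodes. The libraries differed in what else these barcodes held. At least 3 UMIs of T cell or of macrophage markers were present in 171 PyMT B barcodes (11.0%) and in 288 Jagged1/PyMT B barcodes (18.6%). The macrophage markers alone reached that level in 42 and 185 B barcodes, and the library as a whole held 280 and 2136 macrophage barcodes. No doublet caller was run. The libraries shared 70 called barcode sequences, of which 4 were B barcodes in both. Only 1 of these had an assigned light segment in both, and the segment differed.

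V transcripts were a feature of B barcodes. In PyMT 35721 of 35910 V UMIs in called barcodes (99.5%) lay in B barcodes, and in Jagged1/PyMT 32054 of 32177 (99.6%). At least 1 V UMI was found in 99.7% and 99.5% of B barcodes. Scaled by all UMIs of the same barcodes (counts per 1000000, CPM), the V level of B barcodes was 5697 in PyMT against 4741 in Jagged1/PyMT. T barcodes, which should lack these genes, had 3.75 and 1.76 CPM at median depths of 3898 and 3783 UMIs, and macrophage barcodes had 5.38 and 1.15 CPM. Barcodes under 100 UMIs, which mostly hold free RNA, had 924 and 316 CPM, well below B barcodes and far above T barcodes. After each barcode was thinned to 1000 UMIs, which left out 13 and 20 shallower B barcodes, a light V UMI was seen in 92.1% and 90.4% of B barcodes and in 0.350% and 0.0838% of T barcodes. A heavy V UMI was seen in 52.8% and 49.0% of thinned B barcodes. Without thinning a heavy V UMI was present in 82.4% of PyMT (80.4% to 84.2%, exact binomial) and 77.4% of Jagged1/PyMT B barcodes (75.3% to 79.5%).

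The chains differed in how many V UMIs a cell gave. The median B barcode held 16 kappa V UMIs in PyMT and 14 in Jagged1/PyMT, against 3 and 2 heavy V UMIs. Kappa V UMIs outnumbered those of the kappa constant gene Igkc, at 29265 against 5017 in PyMT (5.83 per Igkc UMI) and 26839 against 4717 in Jagged1/PyMT (5.69). Heavy V UMIs were close in number to all heavy constant UMIs, at 6114 against 5228 (1.17) and 4908 against 4990 (0.984). Lambda had the opposite order, with 342 V against 1959 constant UMIs (0.175) and 307 against 3318 (0.0925). These are UMI counts and are not divided by gene length. The kit reads the 3′ end, where the constant exons lie. Where within the V segments the reads lay was not tested.

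Many members had no UMI in B barcodes. In B barcodes 113 of 185 Ighv, 107 of 160 Igkv and all 3 Iglv had at least 1 UMI. Of the 72 Ighv at 0, 52 were annotated pseudogenes, and of the 53 Igkv at 0, 50 were. At least 50 UMIs over both libraries were reached by 49 Ighv, 79 Igkv and 3 Iglv segments. The reference is C57BL/6 and the mice were FVB/NJ. How reads were shared between segments of similar sequence was not tested.

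One light segment filled most B barcodes. Among B barcodes with at least 3 light V UMIs, 1 segment held at least 80% of them in 1234 of 1481 PyMT barcodes (83.3%, 81.3% to 85.2%) and in 1240 of 1487 Jagged1/PyMT barcodes (83.4%, 81.4% to 85.2%). All light V UMIs came from a single segment in 61.6% and 61.7%. A pair of light V UMIs drawn from the same barcode shared its segment in 88.1% and 87.8% of cases, against 2.82% and 2.83% for pairs drawn from the whole library. At 1000 UMIs per barcode the share of barcodes with 1 dominant light segment was 83.5% and 82.7%. Only 2 T barcodes in PyMT and 1 in Jagged1/PyMT had 3 light V UMIs. The share depended on the threshold. At 90% of the UMIs it was 75.2% and 74.2%, and at over 50% it was 99.1% and 98.3%.

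The heavy chain looked less uniform by segment than by subgroup. With the same threshold 563 of 843 PyMT barcodes with at least 3 heavy V UMIs were dominated by 1 segment (66.8%, 63.5% to 70.0%), and 509 of 743 in Jagged1/PyMT (68.5%, 65.0% to 71.8%). Counted by subgroup (the number before the hyphen, a family of related sequences), 1 heavy subgroup dominated in 808 (95.8%, 94.3% to 97.1%) and 705 (94.9%, 93.0% to 96.4%). Counting the light chain by subgroup moved its share only to 84.4% and 84.7%. Counting by subgroup was chosen after the values by segment had been seen.

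**Figure D1:**
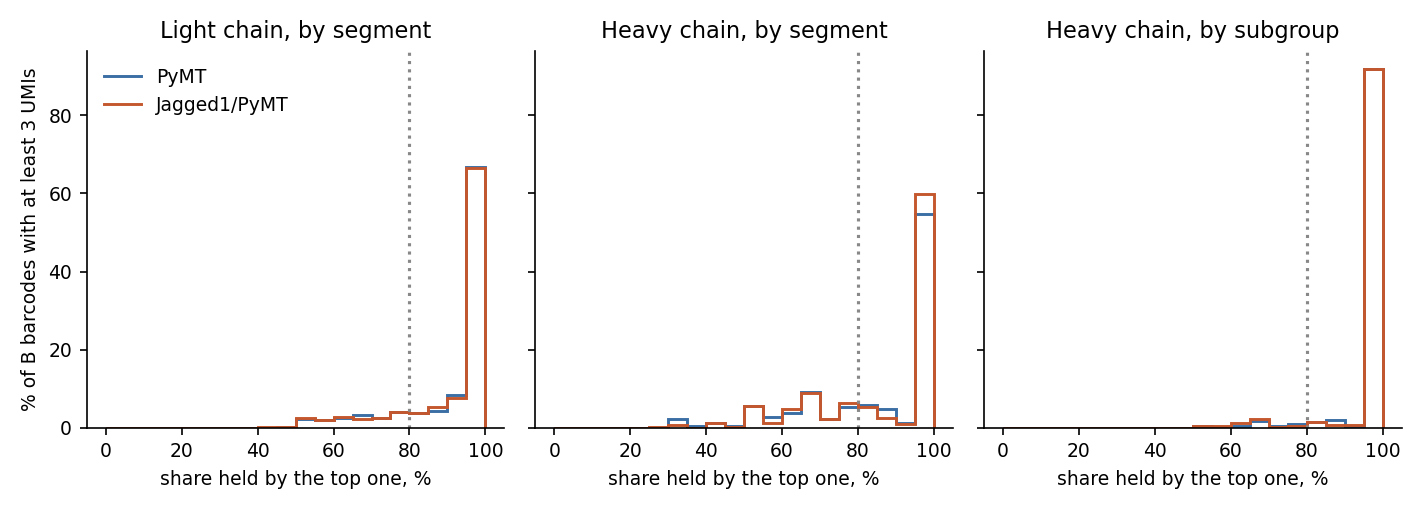
Share of V UMIs held by the leading light segment, heavy segment or heavy subgroup (horizontal axis, percent) against the percent of B barcodes with at least 3 such UMIs (vertical axis), for PyMT (blue) and Jagged1/PyMT (orange). The dotted line marks 80%, and the heavy chain has a shoulder below it by segment (66.8% and 68.5% at or above it) that is nearly gone by subgroup (95.8% and 94.9%).

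Second heavy segments were mostly close relatives of the first. A second segment with at least 3 UMIs and at least 20% of the chain's UMIs was present in 82 PyMT barcodes (9.73% of those with 3 heavy V UMIs) and 50 Jagged1/PyMT barcodes (6.73%). Both segments belonged to the same subgroup in 76 (92.7%) and 43 (86.0%) of them. Their reference transcripts were 95.4% identical in the median in both libraries, against 61.3% over all pairs of Ighv segments and 81.8% over pairs within a subgroup. Identity of at least 90% held for 74.4% and 74.0% of these barcodes and for 2.16% of all Ighv pairs. Ighv2-2 and Ighv2-9-1 formed the most frequent pair, in 13 and 5 barcodes, and were 89.2% identical. Ighv1-15 and Ighv1-23, 98.0% identical, were a pair in 7 and 6 barcodes. Of 11 PyMT barcodes with any UMI of Ighv1-23, 10 also held Ighv1-15, and 9 of 9 did in Jagged1/PyMT. Ighv3-1 and Ighv3-6, 91.7% identical, were a pair in 9 and 4 barcodes. Ighv4-1 and Ighv4-2, 96.4% identical, were a pair in 9 and 4, and 21 of 22 PyMT and 13 of 16 Jagged1/PyMT barcodes with Ighv4-1 also held Ighv4-2. The overlap was smaller for the most frequent pair, where Ighv2-9-1 was found in 23 of 62 and 19 of 68 barcodes with Ighv2-2. The Ighv4 segments are the only members of their subgroup here.

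The first 150 coding bases (leader and start of the V region, GENCODE transcripts of GRCm38) of 3 frequent heavy pairs are shown to make their likeness visible, the most frequent pair and 2 of the 3 tied behind it. Capitals mark bases that differ between the aligned members of a pair. All 6 lie on the minus strand of chromosome 12. Ighv2-2 (113588267 to 113588702) and Ighv2-9-1 (113769850 to 113770302) differ at 15 of the 150 bases.
Ighv2-2: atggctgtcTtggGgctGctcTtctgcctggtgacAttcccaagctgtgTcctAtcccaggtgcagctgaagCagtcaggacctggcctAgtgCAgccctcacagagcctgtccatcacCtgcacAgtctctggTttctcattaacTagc
Ighv2-9-1: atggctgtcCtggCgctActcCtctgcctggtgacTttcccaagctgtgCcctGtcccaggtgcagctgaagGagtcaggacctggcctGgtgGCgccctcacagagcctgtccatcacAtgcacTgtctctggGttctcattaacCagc
Ighv1-15 (114657353 to 114657786) and Ighv1-23 (114764450 to 114764883) differ at 3.
Ighv1-15: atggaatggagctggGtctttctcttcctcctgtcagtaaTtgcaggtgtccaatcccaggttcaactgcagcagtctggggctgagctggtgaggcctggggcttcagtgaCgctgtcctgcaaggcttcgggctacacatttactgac
Ighv1-23: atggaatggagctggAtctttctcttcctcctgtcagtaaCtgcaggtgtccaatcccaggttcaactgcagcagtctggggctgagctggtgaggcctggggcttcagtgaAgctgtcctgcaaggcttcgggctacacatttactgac
Ighv3-1 (113964388 to 113964818) and Ighv3-6 (114288152 to 114288582) differ at 16.
Ighv3-1: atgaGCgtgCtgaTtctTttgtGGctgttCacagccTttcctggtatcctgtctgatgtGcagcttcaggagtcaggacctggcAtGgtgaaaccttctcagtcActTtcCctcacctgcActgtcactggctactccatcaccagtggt
Ighv3-6: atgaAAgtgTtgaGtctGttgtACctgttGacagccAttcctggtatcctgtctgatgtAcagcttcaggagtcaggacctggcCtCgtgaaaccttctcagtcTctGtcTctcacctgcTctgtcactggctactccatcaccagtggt

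Barcodes with a second light segment had another pattern. They numbered 194 among PyMT barcodes (13.1%, 11.4% to 14.9%) and 207 among Jagged1/PyMT barcodes (13.9%, 12.2% to 15.8%), and both segments were kappa in 187 and 201 of them. Only 11 (5.67%) and 14 (6.76%) paired segments of the same subgroup. Median identity was 65.7% in both libraries, close to the 64.3% over all pairs of Igkv segments, and 3.09% and 3.38% of these barcodes reached 90% identity against 2.74% of all Igkv pairs. The 194 and 207 barcodes held 180 and 188 different pairs. The most frequent, Igkv1-135 with Igkv19-93, was seen in 1 and 3 barcodes. The stronger segment had a median of 15 and 14 UMIs and the weaker 7 in both libraries, while only 2 and 1 T barcodes held 3 light V UMIs of any segment.

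These barcodes held more light V UMIs than barcodes with 1 light segment, at medians of 23 against 16 in PyMT and 23 against 14 in Jagged1/PyMT. Part of this difference is set by the rule. It asks for at least 3 UMIs of the second segment beside the first, whereas 3 light V UMIs suffice for 1 segment. The depth of the 2 groups was close. Median total UMIs were 3759.5 against 3608 in PyMT and 3453 against 3358.5 in Jagged1/PyMT, and median Cd79a UMIs were 13 against 12 and 10 against 10. A second heavy subgroup was present in 3 of 121 PyMT barcodes with 2 light segments (2.48%, 0.514% to 7.07%) and in 6 of 671 with 1 (0.894%, 0.329% to 1.94%). In Jagged1/PyMT the counts were 1 of 117 (0.855%, 0.0216% to 4.67%) and 6 of 595 (1.01%, 0.371% to 2.18%). The intervals overlap in each library, but the counts are small. Over all B barcodes the median was only 3 (PyMT) and 2 (Jagged1/PyMT) heavy V UMIs, so a second heavy subgroup could be missed. These counts therefore do not show that the groups were alike. The stronger of 2 kappa segments lay nearer to Igkc in 53.5% (46.1% to 60.8%) and 52.2% (45.1% to 59.3%), and both intervals include equal shares. How the second light segment came about was not tested.

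**Figure D2:**
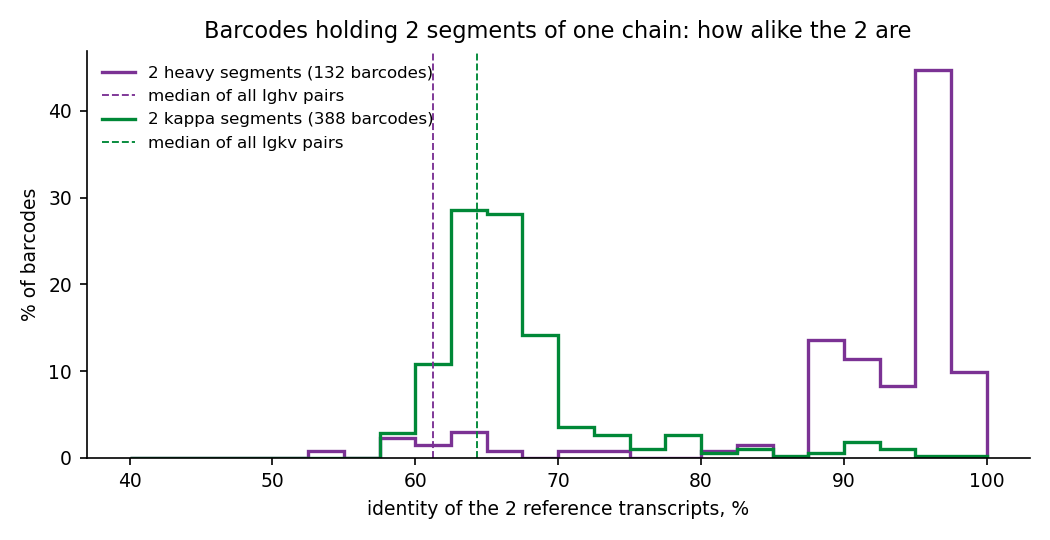
Sequence identity of the 2 reference segments (horizontal axis, percent) in barcodes that held 2 heavy (purple, 132 barcodes) or 2 kappa segments (green, 388 barcodes), as percent of barcodes. Dashed lines are medians over all pairs of Ighv (61.3%) and Igkv (64.3%) segments, and the heavy pairs gather near their own median of 95.4% while the kappa pairs gather around their dashed line.

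Usage was counted over assigned barcodes, so that each cell counted once. Kappa usage was broad: 79 Igkv segments were assigned in PyMT and 76 in Jagged1/PyMT, 74 of them in both, and the 8 most used made up 31.8% and 30.7% of kappa barcodes. Fewer Ighv segments were assigned, 62 and 57, 50 of them in both, with 52.0% and 52.3% of assigned barcodes in the leading 8. These rest on 563 and 509 barcodes, against 1225 and 1234 for kappa. The rule assigned 66.8% and 68.5% of barcodes with at least 3 heavy V UMIs, against 83.3% and 83.4% for light. Breadth can therefore not be compared directly between the chains. The order of segments was alike in the libraries. Across 81 assigned Igkv segments Pearson's r between the libraries was 0.933 and Spearman's rho 0.898, and across 69 Ighv segments r was 0.960 and rho 0.807. Without the 2 most used segments r was 0.902 and 0.923. Segments are not independent replicates, and both libraries share the strain, the reference and the read assignment.

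Igkv10-96 was the most used light segment, in 72 of 1234 PyMT barcodes (5.83%) and 86 of 1240 Jagged1/PyMT barcodes (6.94%). Igkv1-117 followed with 64 (5.19%) and 63 (5.08%), and Igkv1-110 with 46 (3.73%) and 49 (3.95%). Igkv12-46 was assigned to 43 and 38 barcodes, Igkv14-111 to 44 and 37, Igkv6-17 to 45 and 33, Igkv12-44 to 34 and 42, and Igkv6-23 to 41 and 31. For each of these 8 the interval of the ratio between libraries included equal usage. The amount per cell differed more than the usage: assigned barcodes held a median of 12 and 10.5 UMIs of Igkv10-96 but 32.5 and 29 of Igkv1-117. By subgroup Igkv6 led PyMT (195 barcodes, 15.6%) and Igkv4, with 33 members the largest, led Jagged1/PyMT (176 barcodes, 14.0%).

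Ighv8-8 and Ighv3-2 were the most used heavy segments. Ighv8-8 was assigned to 57 of 563 PyMT barcodes (10.1%) and 56 of 509 Jagged1/PyMT barcodes (11.0%), and Ighv3-2 to 61 (10.8%) and 51 (10.0%). Ighv3-2 (chromosome 12, 114033803 to 114034233) is annotated as a pseudogene in the C57BL/6 reference. It made up most of the 79 and 67 barcodes assigned to heavy pseudogenes, and Ighv1-14, another, accounted for 14 and 13. No barcode was assigned to a kappa pseudogene. Ighv1-9 was assigned to 49 and 35 barcodes, Ighv5-17 to 35 and 34, Ighv2-2 to 26 and 33, and Ighv8-12 to 27 and 21. The Ighv1 subgroup, with 93 members, held 324 (40.1%, 36.7% to 43.6%) and 251 (35.6%, 32.1% to 39.3%) of barcodes assigned by subgroup, followed by Ighv8 with 122 (15.1%) and 114 (16.2%). Median depth of an assigned barcode was 5 heavy V UMIs in both libraries. Barcodes with little heavy RNA, or with heavy V UMIs split over similar segments, do not enter the counts by segment.

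**Figure D3:**
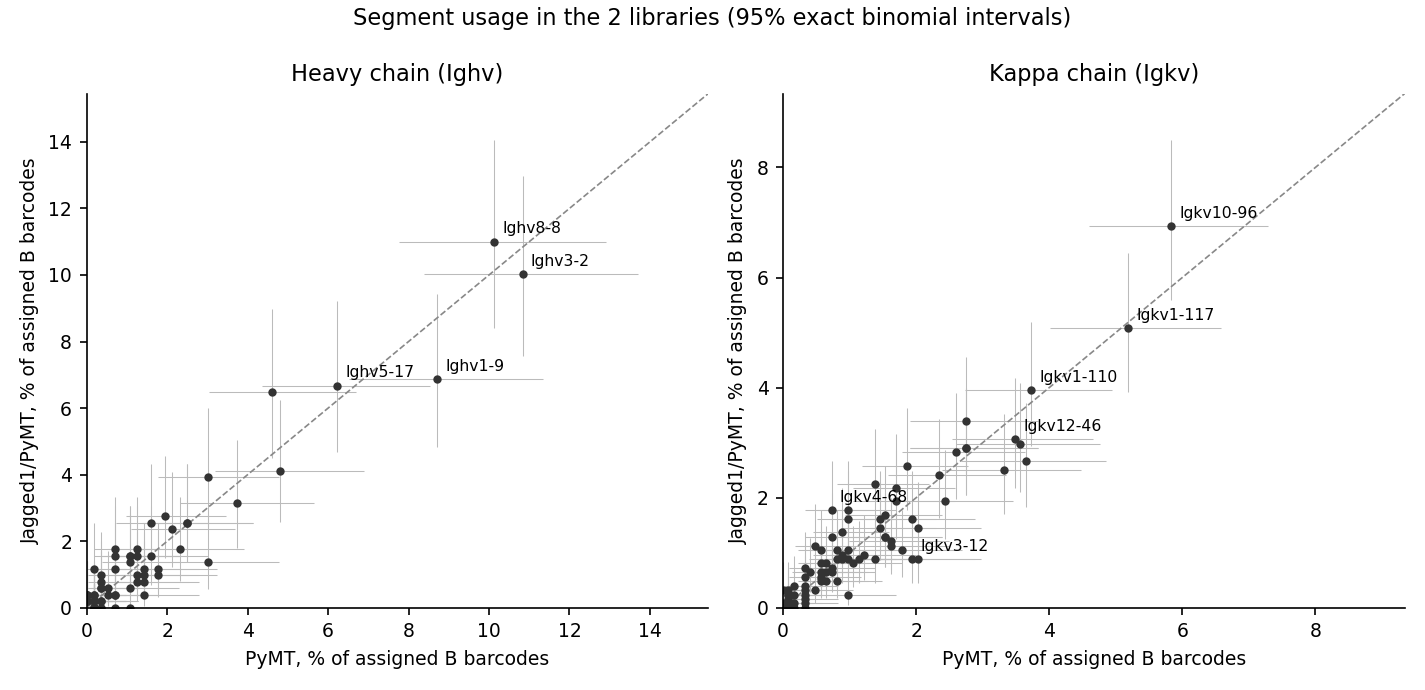
Usage of each assigned Ighv (left) and Igkv (right) segment, as percent of assigned B barcodes in PyMT (horizontal axis) and Jagged1/PyMT (vertical axis), with 95% exact binomial intervals and a line of equal usage. Ighv8-8 and Ighv3-2 stand near 10% to 11% and Igkv10-96 at 5.83% and 6.94%, and Igkv4-68 and Igkv3-12 are among the few whose ratio interval excludes equality.

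Among 61 segments with at least 20 assigned barcodes over both libraries, the 95% interval of the usage ratio excluded equality for 3 (4.92%). That is about the share that 95% intervals leave out where usage is equal, so the 3 are given as values and not as differences in usage. Igkv4-68 was assigned to 9 PyMT and 22 Jagged1/PyMT barcodes (log2 ratio 1.28, 0.11 to 2.59). Igkv8-21 went the other way with 25 and 11 barcodes (-1.19, -2.36 to -0.12), and Igkv3-12 with 24 and 11 (-1.13, -2.31 to -0.05). By subgroup only the interval of Igkv3 left out equality, with 135 PyMT barcodes (10.8%) against 99 (7.86%), a log2 ratio of -0.46 (-0.85 to -0.07), and it was likewise picked from many. No replicate check was possible.

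Position along the locus was described by dividing the span of each V array into 3 equal lengths. The kappa segments nearest to Igkc (22.8 to 1045 kb away) took 46.1% and 41.7% of kappa barcodes, the middle length 24.7% and 27.6%, and the far length 29.1% and 30.7%. Per segment not annotated as a pseudogene, this was 13.5 and 12.3 barcodes near, 9.47 and 10.6 in the middle, and 13.7 and 14.6 far from Igkc. For the heavy chain the near length (152.5 to 946.1 kb from Ighm) took 41.6% and 44.4%, the middle 25.8% and 23.6%, and the far length 32.7% and 32.0%. The middle length was the lowest per segment for both chains and in both libraries.

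Lambda was rarely assigned by V UMIs. Lambda V UMIs numbered 0.175 and 0.0925 per lambda constant UMI, against 5.83 and 5.69 for kappa. Whether lambda cells were left unassigned for want of V UMIs was not tested. Of barcodes with an assigned light segment, 9 PyMT barcodes (0.729%, 0.334% to 1.38%) and 6 Jagged1/PyMT barcodes (0.484%, 0.178% to 1.05%) were assigned to lambda. These were 1 and 1 for Iglv1, 2 and 4 for Iglv2, and 6 and 1 for Iglv3. Iglv3 UMIs were nonetheless seen in 119 and 118 B barcodes, at only 1 or 2 UMIs in 109 and 114 of them. The 2 and 4 barcodes assigned to Iglv2 held a median of 15.5 and 12.5 UMIs of it.

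Lambda constant genes did not follow the V assignment. Of barcodes assigned to a kappa segment, 533 of 1225 PyMT barcodes (43.5%, 40.7% to 46.3%) and 731 of 1234 Jagged1/PyMT barcodes (59.2%, 56.4% to 62.0%) also held a UMI of Iglc2. T barcodes held one in 0.0409% and 0.123%. Iglc3 was found in 27.2% and 41.4% of the kappa barcodes and Iglc1 in 3.43% and 3.81%. At 1000 UMIs per barcode 17.1% of PyMT and 28.0% of Jagged1/PyMT B barcodes held Iglc2. Igkc was present in 88.4% and 86.9% of kappa barcodes. Iglc2 and Iglc3 are similar genes whose reads may be shared, and the source of their UMIs in kappa barcodes was not tested. All 4 Jagged1/PyMT barcodes assigned to Iglv2 held Iglc2, the constant gene it is usually joined to, and 1 of 2 did in PyMT.

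Heavy and light segments were combined widely. In PyMT 452 barcodes had both chains assigned and held 380 different pairs, and in Jagged1/PyMT 416 barcodes held 358. The largest group of barcodes with the same pair was Ighv8-8 with Igkv1-117 in both libraries, at 6 and 5 barcodes. Multiplying the shares of Ighv8-8 and Igkv1-117 among the barcodes with both chains assigned gives 2.43 and 2.16 barcodes. Ighv8-8 with Igkv14-111 (4 barcodes, PyMT), Ighv8-8 with Igkv19-93 (4, Jagged1/PyMT) and Ighv5-17 with Igkv10-96 (3 in PyMT and 4 in Jagged1/PyMT) came next. Each library had 12 pairs in 3 or more barcodes. The V pair alone does not define a clone, since the junction sequence was not measured, and no pair reached more than 6 barcodes.

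No large group of plasma cells stood out in V output. A high-output barcode was one with at least 50 V UMIs and at least 10 times the median of B barcodes, which was 20 in PyMT and 18 in Jagged1/PyMT. None of the PyMT barcodes reached this (200) and 1 Jagged1/PyMT barcode did (180), with 281 V UMIs among 29885 UMIs in all. The next highest there had 127, and the highest in PyMT had 130, so both fell outside. The count and the order of the libraries depended on the threshold: at 20 V UMIs and 4 times the median 13 PyMT and 7 Jagged1/PyMT barcodes passed, and at 100 V UMIs and 20 times the median 0 and 0 did. The highest barcode outside the B rule had 10 and 14 V UMIs. The 16 barcodes with most V UMIs held 4.18% and 4.39% of all V UMIs in B barcodes.

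The high-output barcode carried 2 kappa segments and UMIs of a switched heavy constant gene. It was also deep: V UMIs were 0.940% of its total, below the 1.61% to 3.03% of the 5 PyMT barcodes with most V UMIs, so it stood first by count and not by share. It held 212 UMIs of Igkv14-111, which is 25.1% of that segment's UMIs in Jagged1/PyMT B barcodes, 53 of Igkv5-48 and 12 of Ighv5-4. It also held 28 UMIs of Ighg1, the IgG1 constant gene, 15 of Ighm, 28 of Jchain, which links secreted antibody into polymers, and 22 of Mzb1, an endoplasmic reticulum chaperone of antibody-secreting cells. Ms4a1, which plasma cells lose, was still at 24 UMIs, Cd79a was at 42, and Xbp1, a factor of antibody secretion, was at 1. Of the other plasma cell markers, Irf4 was at 1, and Sdc1, Prdm1, Derl3 and Tnfrsf17 had no UMI. Mzb1 was not particular to such barcodes, being seen in 54.4% of PyMT and 56.4% of Jagged1/PyMT B barcodes. Its light pair is shown as a contrast to the heavy pairs above, since Igkv14-111 (chromosome 6, plus strand, 68256389 to 68256869) and Igkv5-48 (chromosome 6, minus strand, 69726573 to 69727138) differ at 51 of the first 150 coding bases when aligned, capitals again marking the differences.
Igkv14-111: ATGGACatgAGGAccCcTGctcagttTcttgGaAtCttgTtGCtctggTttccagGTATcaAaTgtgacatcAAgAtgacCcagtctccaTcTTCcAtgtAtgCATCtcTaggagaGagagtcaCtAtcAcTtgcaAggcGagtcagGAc
Igkv5-48: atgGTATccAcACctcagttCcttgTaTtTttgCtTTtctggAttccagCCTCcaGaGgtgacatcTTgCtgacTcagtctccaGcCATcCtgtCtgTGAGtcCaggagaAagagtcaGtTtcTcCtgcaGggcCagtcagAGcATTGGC

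The second Jagged1/PyMT barcode held 127 V UMIs, with 68 of Igkv9-120, 39 of Igkv16-104 and 10 of Ighv9-3, beside 10 UMIs of Ighg1, 13 of Jchain and 12 of Mzb1 and none of Ighm. The third held 71 of Igkv12-41 and 13 of Jchain. The highest PyMT barcode held 116 UMIs of Igkv3-4 and 9 of Ighv1-15, with 8 of Ighg1 and 20 of Jchain. The other 4 of the 5 highest in PyMT had 119, 110, 108 and 103 V UMIs, led by Igkv1-117 (108), Igkv6-25 (92), Igkv12-44 (76) and again Igkv1-117 (51), and none held a Jchain UMI. High V output and Jchain thus met in some of the highest barcodes and not in others. At least 3 Jchain UMIs were seen in 4 PyMT and 9 Jagged1/PyMT B barcodes, whose median V UMIs were 55.5 (45 to 130) and 59 (0 to 281). These barcodes were deep, with medians of 8379.5 and 10350 UMIs against 3610 and 3354 in the other B barcodes, and their V levels were 8391 against 5683 CPM in PyMT and 6818 against 4707 CPM in Jagged1/PyMT. At least 2 UMIs of switched constant genes were seen in 11 and 16, with medians of 48 (2 to 130) and 20.5 (0 to 281).

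**Figure D4:**
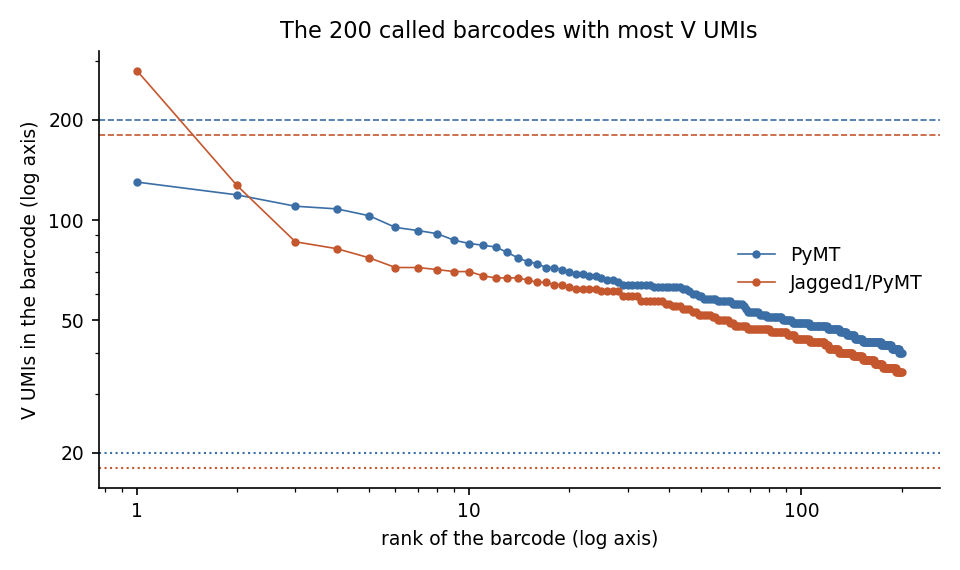
V UMIs (vertical log axis) of the 200 called barcodes with most V UMIs in each library, by rank (horizontal log axis), with the median of B barcodes (dotted, 20 and 18) and 10 times that median (dashed, 200 and 180). Only the first Jagged1/PyMT barcode, at 281, lies above its dashed line.

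Summed V levels were lower in Jagged1/PyMT B barcodes. The Ighv sum was 975 and 726 CPM (PyMT first), which is a log2 ratio of -0.43 (-0.48 to -0.37) for Jagged1/PyMT over PyMT. The Igkv sum was 4668 and 3970 CPM (-0.23, -0.26 to -0.21) and the Iglv sum 54.5 and 45.4 CPM (-0.26, -0.49 to -0.04). These intervals are too narrow, since the UMIs of a segment come in groups from single barcodes. The difference moved with the second-lineage UMIs described above. B barcodes with at least 3 T cell or macrophage marker UMIs contributed 20.7% of all B barcode UMIs in PyMT and 37.9% in Jagged1/PyMT, at median depths of 7038 and 7053.5 UMIs, and their V level was 2698 and 1906 CPM. The remaining 1377 and 1262 B barcodes had V levels of 6478 and 6473 CPM. Without the second-lineage barcodes the Igkv ratio turned to 0.03 (0.00 to 0.06), and the Ighv ratio was -0.15 (-0.21 to -0.09), from 1116 and 1005 CPM. Iglv was at -0.15 (-0.39 to 0.10). In UMIs per barcode the remaining B barcodes had a median of 3 heavy V UMIs in both libraries and 16 and 15 light V UMIs.

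**Figure D5:**
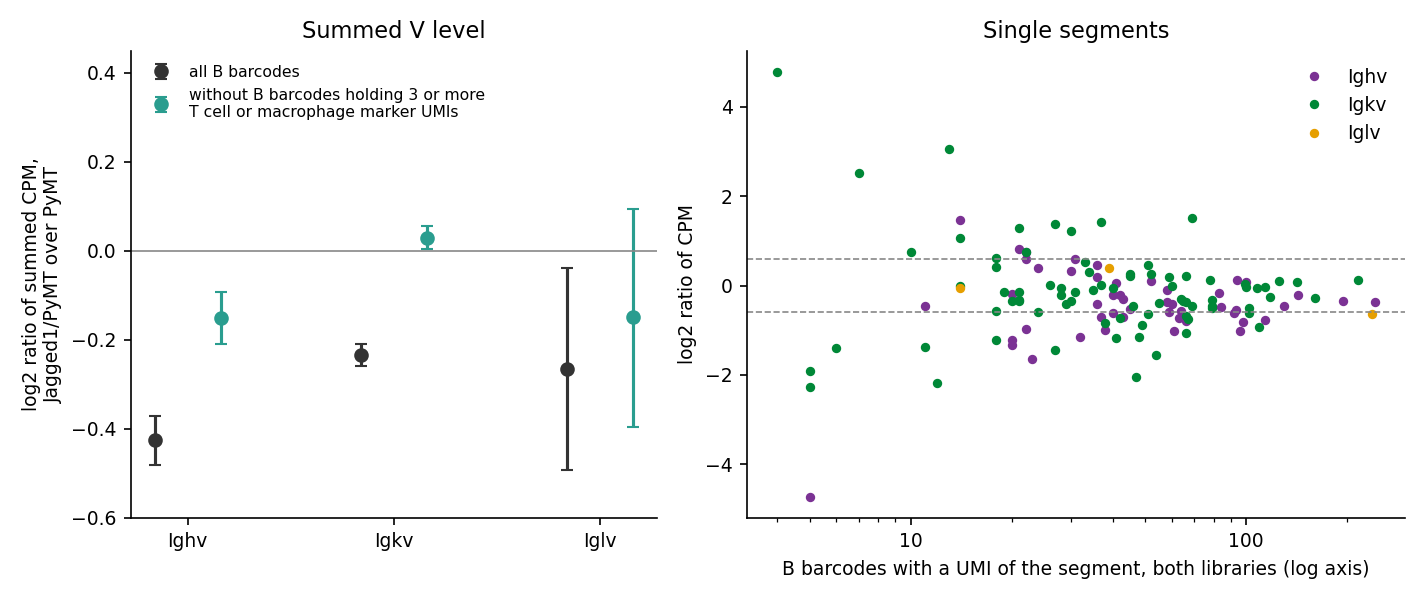
Left: log2 ratio of summed V level (CPM), Jagged1/PyMT over PyMT, with 95% exact intervals for counting error, in all B barcodes (black) and without those with at least 3 T cell or macrophage marker UMIs (green), where Igkv moves from -0.23 to 0.03. Right: log2 ratio of each segment with at least 50 UMIs against the number of B barcodes that held it (log axis), with dashed lines at 1.5-fold, where the largest ratios belong to segments held by few barcodes.

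A larger share of segments than of all genes was lower in Jagged1/PyMT. Of 131 segments with at least 50 UMIs, 17 (13.0%) were over 1.5-fold higher in Jagged1/PyMT and 39 (29.8%) over 1.5-fold lower. Over all 9052 genes with at least 50 UMIs the shares were 11.8% higher and 5.84% lower, so the share of higher segments was near the background. The median log2 ratio was -0.33 for the segments (-0.42 for 49 Ighv and -0.20 for 79 Igkv) and -0.016 for all genes. By chain 5 Ighv and 12 Igkv were higher, and 17 Ighv, 21 Igkv and Iglv3 were lower. The excess of lower segments depended on the second-lineage barcodes: without them 27 of 124 segments (21.8%) were higher and 22 (17.7%) lower, against 4.61% and 6.05% of all genes, with a segment median of -0.03.

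The segments that differed most were held by few barcodes. Igkv5-37 had no UMI in PyMT and 89 in 4 Jagged1/PyMT barcodes, which is 27.5-fold higher with the PyMT count set to 3 UMIs. The lower bound of its log2 ratio was 4.45, for counting error only. By usage, with 4 assigned Jagged1/PyMT barcodes and none in PyMT, the lower bound was -0.61, so equal usage was not excluded. Igkv12-38 had 20 UMIs in 1 PyMT barcode and 123 in 6 Jagged1/PyMT barcodes (log2 ratio 2.51), and Igkv4-92 had 6 in 4 and 54 in 9 (3.06). Igkv4-68 was the broadest of the higher segments, with 91 UMIs in 20 barcodes and 280 in 49 (1.51, 1.17 to 1.87). Igkv1-88 had 81 UMIs in 9 and 227 in 18 barcodes (1.38, 1.01 to 1.76). Without the second-lineage barcodes Igkv4-68 stood at 2.23 and Igkv1-88 at 1.83, and with at most 5% mitochondrial UMIs Igkv1-88 stood at 2.08 (1.62 to 2.56).

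Among the 5 lower segments chosen by the bound of their interval, Igkv3-12 had the most barcodes, with 617 UMIs in 32 PyMT barcodes and 161 in 15 Jagged1/PyMT barcodes (-2.05, -2.31 to -1.79). Ighv1-62-2 had 49 UMIs in 4 barcodes and 2 UMIs in 1 (-4.72, -7.81 to -2.79). Igkv9-123 had 72 UMIs in 4 and 16 in 1 (-2.28), and Igkv1-99 had 105 in 4 and 30 in 1 (-1.92). Igkv10-95 had 72 UMIs in 7 barcodes and 17 in 5 (-2.19), and stood at -0.88 without the second-lineage barcodes. The most used segments differed less. Among the 8 most used kappa segments the log2 ratio ran from 0.13 for Igkv10-96 (178 and 194 CPM) to -0.93 for Igkv6-17 (221 and 116 CPM), and Igkv6-17 and Igkv6-23 (143 and 93.0 CPM, -0.62) were over 1.5-fold lower. The 6 most used heavy segments all stood lower, from -0.34 for Ighv3-2 (84.5 and 66.7 CPM) to -0.77 for Ighv1-9 (52.0 and 30.5 CPM), and Ighv1-9 alone of these 6 passed 1.5-fold. The values of these most used segments without the second-lineage barcodes were not computed.

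Genes that act with the V genes were followed as a list of 22, of which 16 had at least 50 UMIs. None of the 16 was over 1.5-fold higher or lower, against 11.8% higher and 5.84% lower of all genes with at least 50 UMIs. Their median log2 ratio was -0.11. The values of this list include the second-lineage barcodes and were not computed without them. Cd79a, the signalling partner of the receptor, stood at 3137 and 2384 CPM (-0.40, -0.43 to -0.37), and Cd79b, its dimer partner, at 319 and 303 CPM (-0.07, -0.16 to 0.02). Both were also used to choose B barcodes. Pax5, which maintains B cell identity, stood at -0.37, and the kinases Syk, Lyn and Btk at -0.13, -0.17 and -0.29. Pou2f2 and Pou2af1, the octamer factor and its co-activator at V promoters, stood at 0.22 (0.08 to 0.36) and 0.08 (-0.03 to 0.19). Rag1 and Rag2, the recombinase of V(D)J joining, and Igll1, a surrogate light chain gene, had no UMI in B barcodes of either library, which allows a level of up to 0.478 (PyMT) or 0.444 CPM (Jagged1/PyMT), and Dntt and Vpreb1 had 3 or fewer in all.

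Constant genes were counted by UMIs, which do not show whether the RNA was joined to a V segment. The class of each receptor was therefore not determined. Ighm and Ighd, the constant genes of naive B cells, had UMIs in 79.5% and 68.6% of PyMT and in 79.6% and 63.8% of Jagged1/PyMT B barcodes. Among switched genes Ighg3 was the most frequent, in 3.10% and 3.81%, and Ighg1 was in 3 and 12 barcodes. Ighg3 was sparse in these, with 53 UMIs in 48 PyMT barcodes and 65 in 59 Jagged1/PyMT barcodes. Ighm was also found in 15.9% and 20.4% of T barcodes, whereas Ighd was in 0.388% and 0.740% and Igkc in 0.511% and 0.617%. The source of the Ighm UMIs in T barcodes was not tested. Of the plasma cell markers, Mzb1 was in 54.4% and 56.4% of B barcodes and Jchain in 0.388% and 0.774%, while Sdc1 was in 0.969% and 0.323% and Tnfrsf17 in 0 and 1 barcodes.

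V output did not separate B barcodes with a UMI of Myc, a growth regulator induced on B cell activation. Myc was seen in 537 PyMT (34.7%) and 898 Jagged1/PyMT B barcodes (57.9%), against 5.76% and 10.2% of T barcodes. V levels were 5328 CPM with Myc and 5912 without in PyMT, and 4850 and 4583 in Jagged1/PyMT, so the order differed between the libraries. Median V UMIs were 19 and 20 in PyMT and 18 and 17 in Jagged1/PyMT. One light segment dominated in 82.4% and 83.8% of PyMT and in 82.7% and 84.4% of Jagged1/PyMT barcodes with and without Myc.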

How the data were processed

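Immune cells sorted from mammary tumours were sequenced with a 3′ droplet kit, per the labels' protocols. The deposited values are raw counts (UMIs per gene and barcode) made by the authors with Cell Ranger 3.0.2, per the submitters' processing notes. The build, annotation and aligner settings were not given in the sources used here. Each matrix lists 737280 barcodes and 31053 features and pools the 2 samples of its genotype. Total UMIs were 36012036 (PyMT) and 55506773 (Jagged1/PyMT).

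The members and lists were chosen with earlier results of these data known. Barcodes with at least 500 UMIs, 250 genes and at most 10% mitochondrial UMIs were kept. A B barcode had at least 3 UMIs of Cd79a, Cd79b and Ms4a1. A barcode was assigned to the segment holding at least 80% of at least 3 V UMIs of its chain. Counts were summed over B barcodes, expressed as CPM, and compared by log2 ratio for genes with at least 50 UMIs, with 0 set to 3 UMIs for a fold. Intervals are 95% exact binomial, Poisson or conditional binomial and cover counting error only. With 1 library per genotype there was no test. The scripts were checked on simulated data. Values of 2 genes of the receptor pathway list are not reported here.

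Named segments were the 6 Ighv, 8 Igkv and all Iglv assigned most often, up to 5 per direction by the interval bound nearest 0, those of the 5 highest-output barcodes per library, and those in pairs seen in 3 or more barcodes. Igkv8-21, Ighv1-14 and the leading pairs of segments within a chain were named after their values were seen. All 348 members were matched by gene identifier to GENCODE release 21 (GRCm38) for positions, types and transcripts. Identity is matching bases of a global alignment over the shorter transcript. Tools were Python 3.11.15, numpy 2.4.6, pandas 2.3.3, scipy 1.17.1, Biopython 1.88 and matplotlib 3.10.9.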

Additional observations from a re-analysis of the deposited data

How the results depend on the processing

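Of 99 recomputed values for 13 summary results, 78 kept their direction and stayed within counting error or within 1.5 times the count. Leaving out B barcodes with at least 3 T cell or macrophage marker UMIs reversed the Igkv ratio (0.030), moved the Ighv ratio to -0.15 and moved the counts of segments to 27 higher and 22 lower. Light dominance was 75.2% (PyMT) and 74.2% (Jagged1/PyMT) at 90% of UMIs and 99.1% and 98.3% at over 50%. Heavy dominance was 56.1% and 60.8% at 90%, 91.0% and 92.3% at over 50%, and 95.8% and 94.9% by subgroup, an alternative added after seeing the data. With at least 5 heavy V UMIs it was 70.6% in PyMT. A minimum of 100 UMIs left 9 segments higher (8.57%, against 9.03% of all genes), and no minimum gave 36 higher (16.1% against 21.7%) and 80 lower (35.9% against 16.1%). High-output barcodes numbered 13 and 7 at 20 V UMIs and 4 times the median, and 0 in Jagged1/PyMT at 100 V UMIs and 20 times the median. Of 90 values for 10 single segments, 86 stayed within their intervals, 4 moved and none changed sign. The lambda share stayed within its interval under every alternative run.

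No paired analysis was possible because each genotype is 1 matrix that pools its samples, so replicate numbers cannot be told apart, and for the same reason no replicate was left out. Depth limits the heavy chain most: 843 and 743 B barcodes had 3 heavy V UMIs, and segments in few barcodes have wider errors than the intervals given.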
